A study of Mus musculus with 12 samples.

Results

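The genes described here are 10 markers of endothelial cells, the cells that line blood vessels, in mouse brown adipose tissue: Pecam1, Cdh5, Esam, Kdr, Flt1, Robo4, Sox17, Emcn, Vwf and Nos3. They were chosen by name, as the probe sets annotated with exactly 1 of these symbols, and each of the 10 had 1 such probe set, among 22180 genes measured in all. RNA came from male mice, 10 weeks old, with a knockout of the transcription factor gene Zbtb7b (KO) or wild type (WT). The animals were kept at 4 °C for 4 h (cold) or at 22 °C (room temperature). This gave 4 groups of 3 arrays each, namely KO in the cold, WT in the cold, KO at room temperature and WT at room temperature, and 12 arrays in all. The labels do not say how the knockout was made or which cells carry it. The titles present the 3 arrays as biological replicates, but a further label field counts pools and names liver and, for 10 of the 12 arrays, WT ones among them, a knockout of another gene (Nrg4). Tissue and genotype were taken from the titles and sample characteristics. How many animals stand behind an array is therefore not known, and a p-value here weighs a difference against the scatter of these samples alone.

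Endothelial cells form the vessel wall and hold together through adhesion proteins at their junctions. They sense vascular endothelial growth factor (VEGF) through receptor kinases, store haemostatic proteins for release, and make nitric oxide, which relaxes the smooth muscle around the vessel. Brown fat is densely supplied with capillaries, and its blood flow rises when it produces heat in the cold. Among the 10 genes, Pecam1, Cdh5 (VE-cadherin) and Esam encode junction proteins, Kdr (VEGFR2) and Flt1 (VEGFR1) encode VEGF receptors, and Robo4 encodes a roundabout receptor of endothelium. Sox17 encodes a SOX transcription factor of arterial endothelium, Emcn the sialomucin endomucin of capillaries and veins, Vwf the von Willebrand factor that tethers platelets, and Nos3 the endothelial nitric oxide synthase.

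All signals are log2 values, and a difference of 1 is a doubling. Over all probe sets, array medians ran from 2.63 to 2.83, and all 10 markers lay above it on every array. Cdh5 ran from 10.995 to 11.36 over the 12 arrays and Vwf, the dimmest of the 10 probe sets, from 4.67 to 5.82, although levels of different probe sets cannot be compared as amounts of RNA. Zbtb7b lay between 2.96 and 3.62 on the 6 KO arrays and between 4.26 and 4.76 on the 6 WT arrays, which checks the labels. As a check of the tissue, the mean over 13 brown adipocyte genes lay between 9.39 and 10.73, and the mean over 10 hepatocyte genes between 2.81 and 3.14, with 9 of the 10 near background (mean signal under 4).

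The start sites of 4 of the 10 genes had an entry in the promoter table (RefSeq, GRCm38.p6), which holds 250 bases before to 50 bases after a start. These 4 are shown because the other members had no entry. Of the 4, Kdr and Robo4 were higher in the cold over both genotypes, Emcn was lower and Flt1 did not pass the test. Kdr lies at chr5:75978406-75978705 (minus strand), Robo4 at chr9:37401722-37402021 (plus strand), Emcn at chr3:137340828-137341127 (plus strand) and Flt1 at chr5:147725962-147726261 (minus strand). Capitals mark the motifs searched on both strands, AGGAAG (ETS factors of the ERG type), AACAAT (SOX factors), TGTTTAC (fork head factors) and CCACACCC (KLF factors).
Kdr: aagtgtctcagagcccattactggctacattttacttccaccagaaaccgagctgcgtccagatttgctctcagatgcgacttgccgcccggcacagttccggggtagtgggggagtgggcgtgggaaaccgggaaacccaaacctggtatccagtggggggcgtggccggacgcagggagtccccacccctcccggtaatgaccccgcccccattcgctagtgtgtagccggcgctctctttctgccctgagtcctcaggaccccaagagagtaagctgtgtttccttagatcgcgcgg
Robo4: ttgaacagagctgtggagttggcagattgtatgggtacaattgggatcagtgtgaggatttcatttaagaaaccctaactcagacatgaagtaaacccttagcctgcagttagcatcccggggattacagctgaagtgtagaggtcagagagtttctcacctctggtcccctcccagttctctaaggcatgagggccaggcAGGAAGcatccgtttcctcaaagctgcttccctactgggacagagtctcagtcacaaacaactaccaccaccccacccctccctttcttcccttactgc
Emcn: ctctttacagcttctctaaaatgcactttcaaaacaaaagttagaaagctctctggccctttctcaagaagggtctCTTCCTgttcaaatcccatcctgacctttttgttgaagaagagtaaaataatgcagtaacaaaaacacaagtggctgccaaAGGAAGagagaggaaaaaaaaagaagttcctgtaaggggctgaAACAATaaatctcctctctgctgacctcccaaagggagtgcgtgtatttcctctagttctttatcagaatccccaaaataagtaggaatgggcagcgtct
Flt1: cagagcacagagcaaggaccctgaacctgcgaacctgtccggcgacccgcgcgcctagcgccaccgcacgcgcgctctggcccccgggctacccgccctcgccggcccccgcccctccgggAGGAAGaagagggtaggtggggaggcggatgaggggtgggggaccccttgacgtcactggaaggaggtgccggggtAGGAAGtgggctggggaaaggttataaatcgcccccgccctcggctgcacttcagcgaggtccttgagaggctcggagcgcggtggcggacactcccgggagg
The ETS letters occurred at 1 place in the Robo4 window, starting 49 bases before the start, at 2 places in Emcn and at 2 places in Flt1, and at 0 in Kdr. Of all 32851 promoter windows of this length, 35.4% hold them. The SOX letters occurred in Emcn, 50 bases before its start, and 10.7% of all windows hold them. The fork head and KLF letters occurred in none of the 4 windows, and each is held by 3.6% of all windows. The windows differed in base composition, with 41.0% G and C in Emcn, 50.3% in Robo4, 60.7% in Kdr and 70.7% in Flt1, against a median of 52.7% over all windows. In the same assembly Robo4 and Esam lie on chromosome 9 with 2 genes between them, Robo3 and Msantd2.

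The first question was how the markers responded to cold. They did not move as 1 block: Pecam1, Kdr, Robo4 and Sox17 rose in the cold, Emcn and Vwf fell, and Cdh5, Esam, Flt1 and Nos3 did not pass the test, over both genotypes together. In bulk tissue, fewer cells of a type and less RNA per cell cannot be told apart. A gene passed at an adjusted p under 0.05 in limma, and brighter genes are the 8475 with a mean signal of 5 or more, all 10 markers among them. In KO, 6 of the 10 markers passed (4 higher and 2 lower), where 19.2% of all genes and 37.3% of the brighter genes passed (16.7% higher and 20.6% lower). In WT, 3 of the 10 passed (Pecam1 and Robo4 higher, Vwf lower), where 17.4% of all genes and 34.4% of the brighter genes passed (20.0% higher and 14.4% lower). Over both genotypes 6 of the 10 passed, beside 27.2% of all genes and 51.9% of the brighter genes (26.0% higher and 25.9% lower). The share of markers that responded to cold is near that of the brighter genes in WT and over both genotypes. In KO it is above that share, but the count of 6 became 2 to 7 when 1 array was left out. With 10 genes the shares were not tested against each other. The median log2 difference of the 10 markers was 0.21 in KO and 0.29 in WT. Over all genes the median was 0.00388 in KO and -0.02 in WT. The cold and room-temperature arrays did not overlap for 7 of the 10 markers in KO and for 8 of the 10 in WT, as for 51.0% of the brighter genes in KO and 61.7% in WT (31.6% and 36.8% of all genes).

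**Figure D1:**
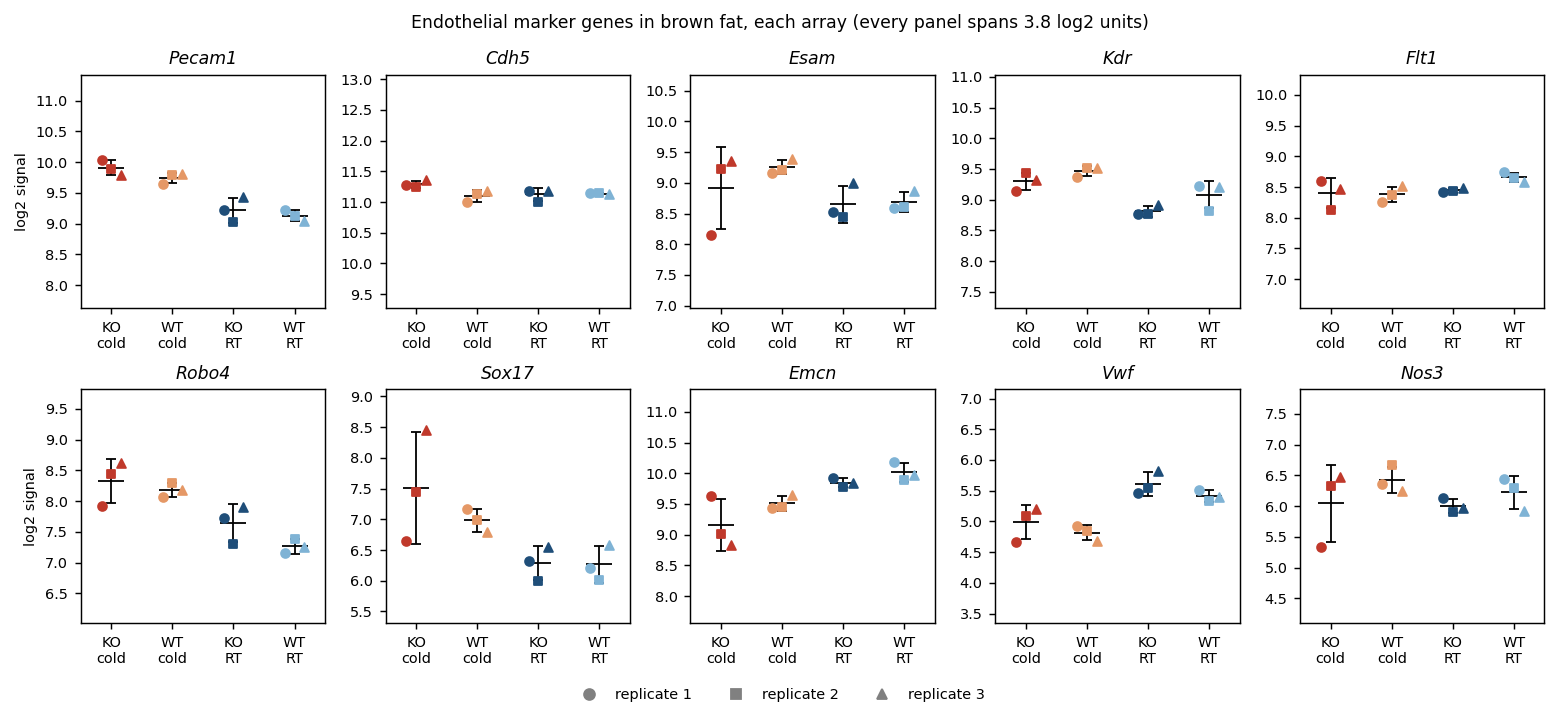
Log2 signal (y axis) of the 10 endothelial marker genes on each of the 12 arrays, with 1 panel per gene and groups on the x axis (RT, room temperature). Points are arrays, shaped by replicate number, and horizontal lines with bars are group means ± SD (n = 3). The cold arrays of Pecam1 lie between 9.65 and 10.04, above the room-temperature arrays at 9.02 to 9.42, while those of Vwf lie below theirs, and the KO cold arrays of Sox17, Esam and Nos3 spread the most.

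Among the junction proteins, Pecam1, an adhesion molecule that platelets and leukocytes also carry, rose in the cold in both genotypes. Its signal was 10.04, 9.89 and 9.80 in KO in the cold, against 9.22, 9.02 and 9.42 in KO at room temperature. It was 9.65, 9.78 and 9.81 in WT in the cold, against 9.22, 9.12 and 9.04 in WT at room temperature. All 6 cold arrays lay above all 6 room-temperature arrays. In limma the cold raised it by 0.69 ± 0.13 on the log2 scale (SE, adjusted p = 0.00301, 3 arrays a group) in KO and by 0.62 ± 0.13 (adjusted p = 0.00634) in WT, a rise of 1.61-fold and 1.54-fold.

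Cdh5, which forms the adherens junctions of endothelium, stayed within a narrow range. Its signal was 11.27, 11.25 and 11.36 in KO in the cold, against 11.19, 11.004 and 11.19 in KO at room temperature. In WT it was 10.995, 11.14 and 11.17 in the cold, against 11.14, 11.15 and 11.13 at room temperature. The KO groups did not overlap, while the WT groups did. The log2 difference was 0.17 ± 0.11 (95% interval -0.07 to 0.41, adjusted p = 0.362) in KO and -0.04 ± 0.11 (-0.28 to 0.20, adjusted p = 0.880) in WT.

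Esam, an adhesion molecule of tight junctions, had signals of 8.15, 9.23 and 9.36 in KO in the cold, against 8.52, 8.44 and 8.99 in KO at room temperature. In WT it was 9.16, 9.21 and 9.38 in the cold, against 8.58, 8.61 and 8.87 at room temperature. KO cold replicate 1 lay below every other array, and the WT groups did not overlap. The differences of 0.26 ± 0.27 (adjusted p = 0.587) in KO and 0.56 ± 0.27 (log2 ± SE, adjusted p = 0.189) in WT did not pass. Without KO cold replicate 1 Esam passed as higher in the cold in KO (0.65 ± 0.18, adjusted p = 0.0273), in WT (0.56 ± 0.16, adjusted p = 0.0278) and over both genotypes (0.60 ± 0.12, adjusted p = 0.00257).

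The VEGF receptors differed from each other. Kdr, the main signalling receptor for VEGF-A, had 9.15, 9.43 and 9.32 in KO in the cold, against 8.76, 8.76 and 8.92 in KO at room temperature. In WT its signals were 9.37, 9.52 and 9.51 in the cold, against 9.22, 8.82 and 9.20 at room temperature. Cold lay above room temperature without overlap within each genotype. The rise passed in KO (0.49 ± 0.14, adjusted p = 0.0267) and over both genotypes (0.44 ± 0.10, adjusted p = 0.00482), while WT stood at 0.38 ± 0.14 (adjusted p = 0.0787).

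Flt1, which binds VEGF-A tightly and signals weakly, had 8.59, 8.12 and 8.47 in KO in the cold, against 8.42, 8.43 and 8.49 in KO at room temperature. In WT it had 8.26, 8.37 and 8.51 in the cold, against 8.74, 8.65 and 8.59 at room temperature. The KO groups overlapped, and in WT every cold array lay below every room-temperature array. Its log2 difference was -0.05 ± 0.14 (95% interval -0.35 to 0.25, adjusted p = 0.866) in KO and -0.28 ± 0.14 (-0.57 to 0.02, adjusted p = 0.207) in WT.

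Robo4, the endothelial member of the roundabout receptors, rose in the cold in both genotypes. Its signal was 7.92, 8.43 and 8.62 in KO in the cold, against 7.73, 7.30 and 7.91 in KO at room temperature. In WT it was 8.07, 8.29 and 8.18 in the cold, against 7.15, 7.39 and 7.26 at room temperature. The WT groups lay far apart, while in KO the lowest cold array and the highest room-temperature array nearly met. The log2 difference was 0.68 ± 0.19 (adjusted p = 0.0283) in KO and 0.91 ± 0.19 (adjusted p = 0.00634) in WT.

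Sox17 showed the widest spread between replicates. Its signal was 6.64, 7.44 and 8.46 in KO in the cold, against 6.32, 5.99 and 6.55 in KO at room temperature. In WT it was 7.17, 6.99 and 6.79 in the cold, against 6.20, 6.01 and 6.59 at room temperature. Every cold array lay above every room-temperature array, KO cold replicate 1 by little and KO cold replicate 3 by the most. The rise passed in KO (1.23 ± 0.35, adjusted p = 0.0276) and over both genotypes (0.97 ± 0.25, adjusted p = 0.0106), while WT stood at 0.72 ± 0.35 (adjusted p = 0.202). Without KO cold replicate 3 the difference in KO was 0.75, with an adjusted p of 0.0644.

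Emcn, an anti-adhesive surface mucin of capillary and venous endothelium, was lower in the cold. Its signal was 9.64, 9.01 and 8.84 in KO in the cold, against 9.92, 9.78 and 9.84 in KO at room temperature. In WT it was 9.43, 9.45 and 9.65 in the cold, against 10.19, 9.89 and 9.97 at room temperature. All 6 cold arrays lay below all 6 room-temperature arrays. Emcn fell by 0.68 ± 0.18 on the log2 scale in KO (adjusted p = 0.0204) and by 0.59 ± 0.13 over both genotypes (adjusted p = 0.00408), and WT stood at -0.51 ± 0.18 (adjusted p = 0.0824).

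Vwf, which endothelial cells and megakaryocytes make and store, fell in the cold in both genotypes. Its signal was 4.67, 5.08 and 5.20 in KO in the cold, against 5.46, 5.54 and 5.82 in KO at room temperature. In WT it was 4.92, 4.84 and 4.68 in the cold, against 5.52, 5.33 and 5.40 at room temperature. Again no cold array reached a room-temperature array. Vwf fell by 0.63 ± 0.16 in KO (adjusted p = 0.0144) and by 0.60 ± 0.16 in WT (adjusted p = 0.0195) on the log2 scale, which is 1.54-fold and 1.52-fold.

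Nos3 had 5.33, 6.32 and 6.48 in KO in the cold, against 6.13, 5.90 and 5.97 in KO at room temperature. In WT it had 6.36, 6.66 and 6.25 in the cold, against 6.45, 6.30 and 5.92 at room temperature. The groups overlapped in each genotype, and KO cold replicate 1 was the lowest of the 12 arrays, as for Esam. The log2 difference was 0.04 ± 0.26 (95% interval -0.52 to 0.61, adjusted p = 0.941) in KO and 0.20 ± 0.26 (-0.37 to 0.76, adjusted p = 0.692) in WT, so neither direction was detectable with 3 arrays per group.

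The calls within KO rest on few arrays. The count of 6 became 2 without KO room-temperature replicate 1, 3 without KO room-temperature replicate 2, 2 without KO cold replicate 2 and 2 without KO cold replicate 3. With the 6 KO arrays alone it was 1, with Pecam1 remaining. The count of 3 in WT became 5 without KO cold replicate 1 (one of the arrays that set the shared spread) and 6 from the 6 WT arrays alone. Over both genotypes, Pecam1, Kdr, Emcn, Vwf, Robo4 and Sox17 passed in every alternative that was run.

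The second question was whether the knockout changed the markers. It changed 0 of the 10 by the test at either temperature, where 0.911% of all genes (1.59% of the brighter) passed in the cold and 0.550% (0.885%) at room temperature. In limma at an unadjusted p under 0.05 the count was also 0 of 10 at each temperature, beside 14.4% of all genes in the cold and 11.4% at room temperature. Over both temperatures 0 of 10 passed, beside 1.63% of all genes, and 1 of 10 (Kdr) had an unadjusted p under 0.05, beside 14.7%. The log2 differences, KO minus WT, lay between -0.38 (Nos3) and 0.53 (Sox17) in the cold and between -0.27 (Kdr) and 0.38 (Robo4) at room temperature. The ends of the range in the cold each rest on 1 array: without KO cold replicate 1 Nos3 stood at -0.02, and without KO cold replicate 3 Sox17 stood at 0.06. The median over the 10 was 0.08 in the cold and -0.03 at room temperature, where the median of all genes was 0.00956 and 0.00853.

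Kdr averaged 9.30 ± 0.14 in KO and 9.47 ± 0.08 in WT in the cold (SD, n = 3 each), and 8.81 ± 0.09 in KO and 9.08 ± 0.22 in WT at room temperature. Over both temperatures its difference was -0.22 ± 0.10 (SE, 95% interval -0.43 to -0.00621, adjusted p = 0.323). Cdh5 in the cold was higher on each KO array than on each WT array (0.19 ± 0.11, adjusted p = 0.467), and Flt1 at room temperature was lower on each KO array (-0.21 ± 0.14, adjusted p = 0.609). Those were the only markers whose KO and WT arrays did not overlap within a temperature, 1 of 10 each time, beside 20.6% of all genes (30.3% of the brighter) in the cold and 17.0% (22.2%) at room temperature.

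The intervals bound what the arrays could have missed. For Cdh5, Pecam1 and Flt1 the 95% intervals of the KO minus WT difference in the cold ran from -0.05 to 0.43, from -0.12 to 0.45 and from -0.28 to 0.31. For Sox17 the interval was -0.23 to 1.29 and for Nos3 -0.94 to 0.19, so that a change of 1.5-fold is not bounded out for these genes. The same holds in the cold for Esam (-0.93 to 0.24) and Emcn (-0.75 to 0.05). At room temperature it holds for Robo4 (-0.04 to 0.80), Esam (-0.62 to 0.55), Sox17 (-0.74 to 0.78) and Nos3 (-0.79 to 0.34).

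**Figure D2:**
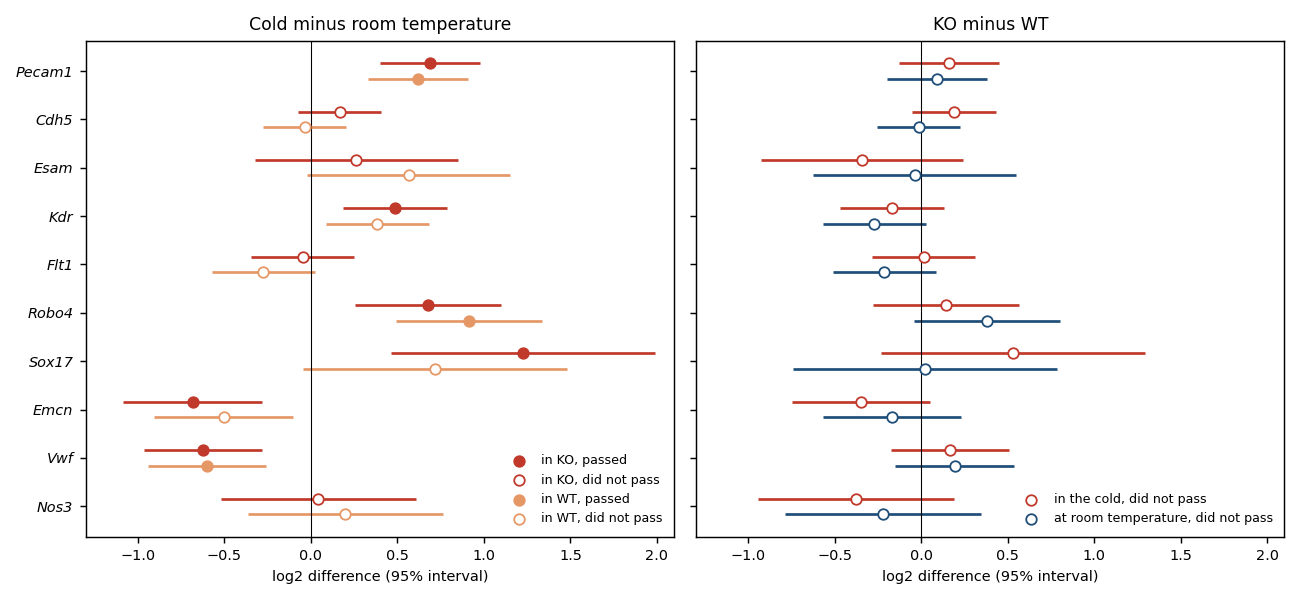
Log2 differences (x axis) of the 10 marker genes with 95% intervals from limma, for cold minus room temperature (left) in KO and in WT and for KO minus WT (right) in the cold and at room temperature. Filled points passed at an adjusted p under 0.05 over all genes and open points did not. On the left Pecam1, Kdr, Robo4 and Sox17 in KO lie to the right of 0 with Emcn and Vwf to the left, and on the right 0 of 10 markers passed.

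The third question was whether the response to cold differed between KO and WT. The interaction passed for 0 of the 10 markers, where 0.0271% of all genes (0.0354% of the brighter) passed, and for 0 of 10 at an unadjusted p under 0.05, beside 10.5% of all genes. The differences between the cold responses, KO minus WT, were largest for Sox17 (0.51 ± 0.50, 95% interval -0.57 to 1.59, adjusted p = 0.746) and Esam (-0.30 ± 0.38, -1.13 to 0.53, adjusted p = 0.806). Without KO cold replicate 3 the value for Sox17 was 0.04, and without KO cold replicate 1 that for Esam was 0.08. For Pecam1 the interval was -0.34 to 0.48 and for Vwf -0.51 to 0.46. That 6 markers passed in KO and 3 in WT is therefore not a difference shown between the genotypes.

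Further genes of endothelium were described by lists. Of 29 other endothelial genes measured, 16 passed in the cold in KO (5 higher and 11 lower) and 9 in WT (5 higher and 4 lower). Of the brighter genes 37.3% passed in KO (16.7% higher and 20.6% lower) and 34.4% in WT (20.0% higher and 14.4% lower). The counts were not tested against other genes. Their median log2 difference was -0.24 in KO and 0.11 in WT. Among the higher genes was Eng (endoglin, a co-receptor of the TGF-beta family), by 0.89 ± 0.14 in KO (adjusted p = 0.00106) and 0.84 ± 0.14 in WT (adjusted p = 0.00168). Sox18, which like Sox17 belongs to the SoxF factors, rose by 0.99 in KO and 1.22 in WT, whereas Sox7, the remaining SoxF gene, stood at 0.24 and 0.11 and did not pass. The sialomucin Podxl rose by 1.05 in KO and 0.59 in WT, in contrast to the sialomucin Emcn. The angiopoietin receptor gene Tek fell by 1.34 ± 0.19 in KO (adjusted p = 4.60e-04) and stood at -0.58 ± 0.19 in WT (adjusted p = 0.0577), and its relative Tie1 fell by 0.58 in KO and 0.77 in WT. The interaction passed for 0 of these 29 genes, where 10 of 29 had an unadjusted p under 0.05 (10.5% of all genes). It passed for 1 of the 29, Tspan18, without KO cold replicate 1 and with the skeletal muscle mean as a covariate.

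Within this list, 1 of 29 genes, Tspan18, passed between KO and WT in the cold, beside 0.911% of all genes (1.59% of the brighter). In limma 12 of 29 had an unadjusted p under 0.05, beside 14.4% of all genes. For 14 of 29 the KO and WT cold arrays did not overlap, beside 20.6% of all genes (30.3% of the brighter). The median log2 difference, KO minus WT, was -0.24. Without KO cold replicate 1, 1 gene passed as higher and 2 as lower. Tspan18, a tetraspanin, had 8.83, 9.14 and 9.39 in KO in the cold, against 7.75, 7.89 and 7.98 in WT in the cold. At room temperature it had 9.92, 10.04 and 9.53 in KO, against 10.16, 10.27 and 9.96 in WT. The KO cold arrays lay above the WT cold arrays and below all room-temperature arrays. It fell in the cold by 0.71 ± 0.17 in KO (adjusted p = 0.0126) and by 2.26 ± 0.17 in WT (adjusted p = 1.33e-05). KO minus WT was 1.25 ± 0.17 in the cold (adjusted p = 0.00953), and the interaction was 1.55 ± 0.25 with an adjusted p of 0.0610. The interaction was 1.69 ± 0.23 (adjusted p = 0.0270) without KO cold replicate 1, 1.66 ± 0.24 (adjusted p = 0.0433) with the skeletal muscle covariate and 1.41 ± 0.24 (adjusted p = 0.0955) without KO cold replicate 3.

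**Figure D3:**
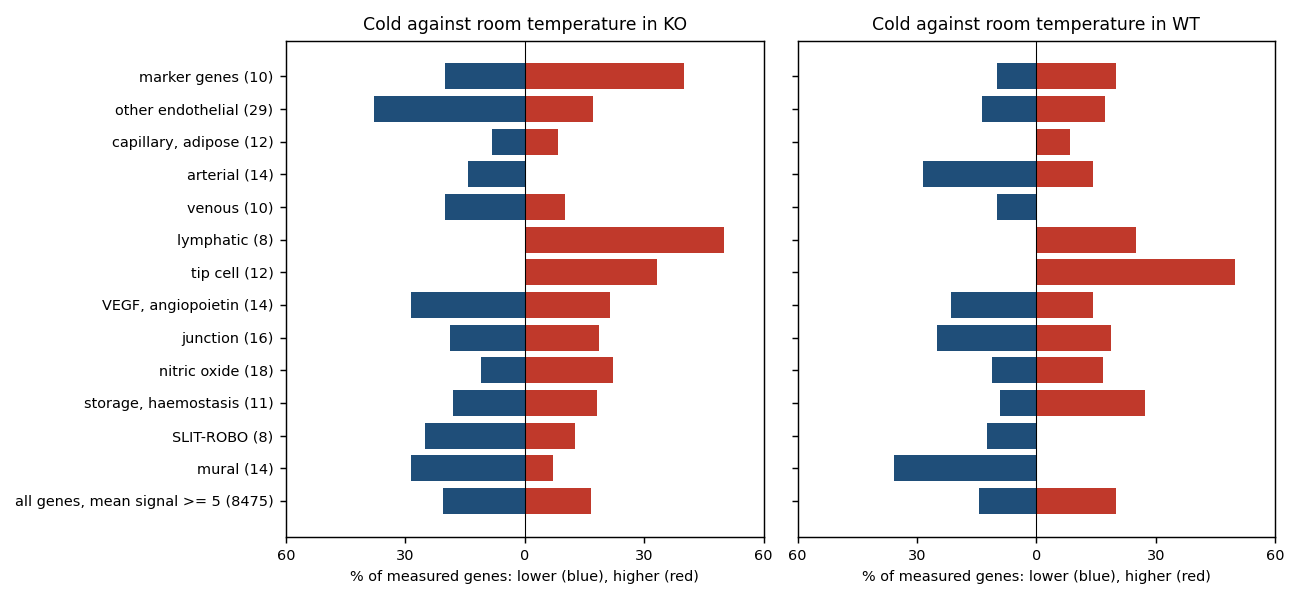
Share of the measured genes of each list (number in brackets) that passed in the cold, with the percent lower to the left and the percent higher to the right of 0, in KO (left panel) and in WT (right panel). The bottom bar gives the same share for the 8475 brighter genes. Of all 22180 genes 19.2% passed in KO and 17.4% in WT. Tip cell genes (4 in KO, 6 in WT) and lymphatic genes (4 in KO, 2 in WT) passed as higher and 0 of them as lower with all 12 arrays, whereas 2 tip cell genes passed as lower in KO without KO cold replicate 3.

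Genes that mark vessel types were counted in the same way. Of the brighter genes 37.3% passed in KO and 34.4% in WT, and of all genes 19.2% and 17.4%. Near background (mean signal under 4) were 1 of the 12 capillary and 2 of the 14 arterial genes. The counts describe the lists and were not tested against other genes. Of 12 genes listed for adipose capillaries 2 passed in KO (1 higher, 1 lower) and 1 in WT. Some of the 12, such as Lpl, Cd36 and Aqp7, are not confined to endothelium, and bulk tissue does not show which cells carry them. Gpihbp1, which carries lipoprotein lipase across capillary endothelium, stood at 0.22 in KO and 0.55 in WT and did not pass, and Rgcc, a cell cycle regulator of capillary endothelium, rose by 0.65 in KO and 0.61 in WT. Of 14 arterial genes 2 passed in KO (0 higher, 2 lower) and 6 in WT (2 higher, 4 lower), among them the Notch ligand Jag1, which fell by 0.48 in KO and 0.73 in WT. Of 10 venous genes 3 passed in KO (1 higher, 2 lower) and 1 in WT. Nr2f2, the factor of venous identity, fell by 0.84 ± 0.12 in KO (adjusted p = 5.58e-04) and stood at -0.29 in WT, and the apelin receptor Aplnr fell in both genotypes, with group means of 3.98 in KO and 6.03 in WT in the cold, against 8.61 in KO and 8.65 in WT at room temperature. The KO mean in the cold is near background, so the size of the fall in KO is not measured exactly. The interaction passed for 0 of the 10 venous genes with all 12 arrays, and for 1 of them without KO cold replicate 1. A venous gene that passed in KO alone, such as Nr2f2, is therefore not a difference shown between the genotypes.

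With all 12 arrays, the lymphatic and tip cell genes that passed were higher in the cold. Of the brighter genes 16.7% passed as higher in KO and 20.0% in WT. Of all 22180 genes 1849 did so in KO and 2082 in WT. Near background (mean signal under 4) were 4 of the 8 lymphatic and 1 of the 12 tip cell genes. Of 8 lymphatic genes 4 rose in KO and 2 in WT, with the hyaluronan receptor Lyve1 higher by 1.76 and 1.84 and the VEGF-C receptor Flt4 by 0.92 and 0.58. Prox1, the master factor of lymphatic endothelium, stayed near the background of the arrays with group means of 2.15 in KO and 1.70 in WT in the cold, and Lyve1 and Fgl2 are also made by macrophages. Of 12 tip cell genes, which mark the leading cells of a sprouting vessel, 4 rose in KO and 6 in WT. Without KO cold replicate 3, 4 were higher and 2 lower in KO, and the lower ones were Cxcr4 (-0.81) and Trp53i11 (-0.76). Pgf, the placental growth factor that binds Flt1, rose in KO (adjusted p = 1.17e-04) and in WT (adjusted p = 5.97e-04), with group means of 7.25 in KO and 5.61 in WT in the cold, against 2.86 in KO and 2.11 in WT at room temperature. The room-temperature means are near background, so the size of the rise is not measured exactly. Esm1, another tip cell gene, stayed near background with group means of 1.72 to 1.97.

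Partners of the markers were read in the same way, beside 37.3% of the brighter genes in KO and 34.4% in WT. Of all genes 19.2% and 17.4% passed. Of 14 VEGF and angiopoietin partners 7 passed in KO (3 higher, 4 lower) and 5 in WT (2 higher, 3 lower). Vegfa, the ligand of Kdr and Flt1, stood at 0.36 ± 0.13 in KO (adjusted p = 0.0850) and 0.17 ± 0.13 in WT (adjusted p = 0.443), while Angpt1, the activating ligand of Tek, fell to group means near background, 3.95 in KO and 3.83 in WT in the cold, against 7.32 in KO and 6.85 in WT at room temperature. Spry4 and Rcan1, both feedback inhibitors downstream of growth factor receptors, rose by 2.29 and 1.12 in KO and by 1.95 and 0.73 in WT. Of 16 junction partners 6 passed in KO (3 higher, 3 lower) and 7 in WT (3 higher, 4 lower). The tight junction genes Cgnl1 (-1.26 in KO, -1.24 in WT), Tjp1 (-0.78, -0.72) and Jam2 (-0.69, -0.84) fell.

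Of 18 partners of nitric oxide signalling 6 passed in KO (4 higher, 2 lower) and 5 in WT (3 higher, 2 lower). The subunits of its receptor, soluble guanylate cyclase, fell: Gucy1a1 by 1.82 in KO and 1.48 in WT, and Gucy1b1 by 1.46 in KO and 0.93 in WT. Slc7a1, an importer of the substrate arginine, rose by 2.30 in KO and 2.01 in WT, where its WT mean at room temperature was near background (3.85). Of 11 genes of storage granules and haemostasis 4 passed in each genotype (2 higher and 2 lower in KO, 3 higher and 1 lower in WT). Edn1, the vasoconstrictor endothelin, rose by 2.03 ± 0.18 in KO (adjusted p = 2.30e-05) and by 1.92 ± 0.18 in WT (adjusted p = 4.41e-05), where its WT mean at room temperature was near background. Rab3d, a GTPase of secretory granules, fell by 1.28 and 1.20, beside the fall of Vwf. Of 8 genes of SLIT and roundabout signalling 3 passed in KO (1 higher, 2 lower) and 1 in WT, and Slit2 and Slit3, ligands of roundabout receptors, did not. Near background (mean signal under 4) were 4 of the 18 nitric oxide partners and 3 of the 8 SLIT and roundabout genes. Partners of Sox17 were not listed.

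Between KO and WT, 3 genes of these lists passed in the cold, beside 0.911% of all genes (1.59% of the brighter). They were 1 of 29 other endothelial, 1 of 10 venous and 1 of 11 storage and haemostasis genes. In the cold Tspan18 was higher in KO, and Aplnr and the thrombin receptor F2r were lower (F2r -1.16 ± 0.19, adjusted p = 0.0170). At room temperature 0 genes of the 11 endothelial and partner lists passed, beside 0.550% of all genes. In limma, unadjusted p under 0.05 at room temperature ran from 0 of 16 junction partners to 6 of 12 tip cell genes. The tip cell median, KO minus WT, was 0.48, and 11.4% of all genes had such a p. In the cold the counts ran from 1 of 8 SLIT and roundabout genes to 5 of 8 lymphatic genes (median 0.45), beside 14.4%. These counts were not tested against other genes. Over both temperatures 6 genes of the 11 lists passed, beside 1.63% of all genes. Of 10 venous and of 11 storage and haemostasis genes 1 each was higher and 1 lower. Of 12 tip cell and of 18 nitric oxide genes 1 each was higher. Adm (adrenomedullin, a vasodilator peptide; 0.98 ± 0.17, adjusted p = 0.0170), Slc7a1 (0.86 ± 0.18, adjusted p = 0.0351), Lrg1 (0.77 ± 0.15, adjusted p = 0.0269) and Cd63 (0.60 ± 0.11, adjusted p = 0.0197) were higher in KO. Aplnr and F2r (-0.79 ± 0.14, adjusted p = 0.0143) were lower.

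Other cell types that could carry these RNAs were measured on the same arrays. The mean over 17 macrophage genes was 6.10 to 6.70 in KO in the cold, 5.98 to 6.34 in WT in the cold, 6.18 to 6.46 in KO at room temperature and 5.55 to 5.85 in WT at room temperature. Of these 17 genes 5 passed in the cold in KO (4 higher, 1 lower) and 9 in WT (8 higher, 1 lower), beside 37.3% and 34.4% of the brighter genes. Between KO and WT, 2 of the 17 passed in the cold (0.911% of all genes), 0 at room temperature and 2 over both temperatures (1.63%). In limma 12 of 17 had an unadjusted p under 0.05 at room temperature (11.4% of all genes), with a median KO minus WT of 0.72. In the cold 3 of 17 had (14.4%). The mean over 9 platelet and megakaryocyte genes was 3.94 to 4.12 in KO in the cold, 3.63 to 3.83 in WT in the cold, 3.87 to 3.96 in KO at room temperature and 3.60 to 3.81 in WT at room temperature. Their integrin gene Itga2b stayed between 2.25 and 3.20. Of the 9 genes 5 were near background. The chemokine gene Ppbp was higher in KO in the cold (1.23 ± 0.25, adjusted p = 0.0396). The part of these cells in the changes of Pecam1 and Vwf was not tested.

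The mean over 21 skeletal muscle genes was 8.07, 4.26 and 7.92 in KO in the cold, 5.03, 6.98 and 7.47 in WT in the cold, 8.29, 7.34 and 3.16 in KO at room temperature and 3.15, 6.18 and 2.88 in WT at room temperature. Within each group its range was wider than that of any marker. With this mean as a covariate, 6 markers passed in KO and 3 in WT, but in WT Kdr passed (0.50 ± 0.14, adjusted p = 0.0351) and Vwf did not (-0.46, adjusted p = 0.0709). The mean over 11 neutrophil genes, 10 of them near background, was 4.15 in KO cold replicate 3, against 1.95 to 2.60 on the other 11 arrays, and that array also had the highest Sox17 and the lowest Emcn. The mean over the 10 markers was 8.14, 8.42 and 8.59 in KO in the cold, 8.34, 8.43 and 8.39 in WT in the cold, 8.17, 8.02 and 8.31 in KO at room temperature and 8.24, 8.13 and 8.20 in WT at room temperature.

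**Figure D4:**
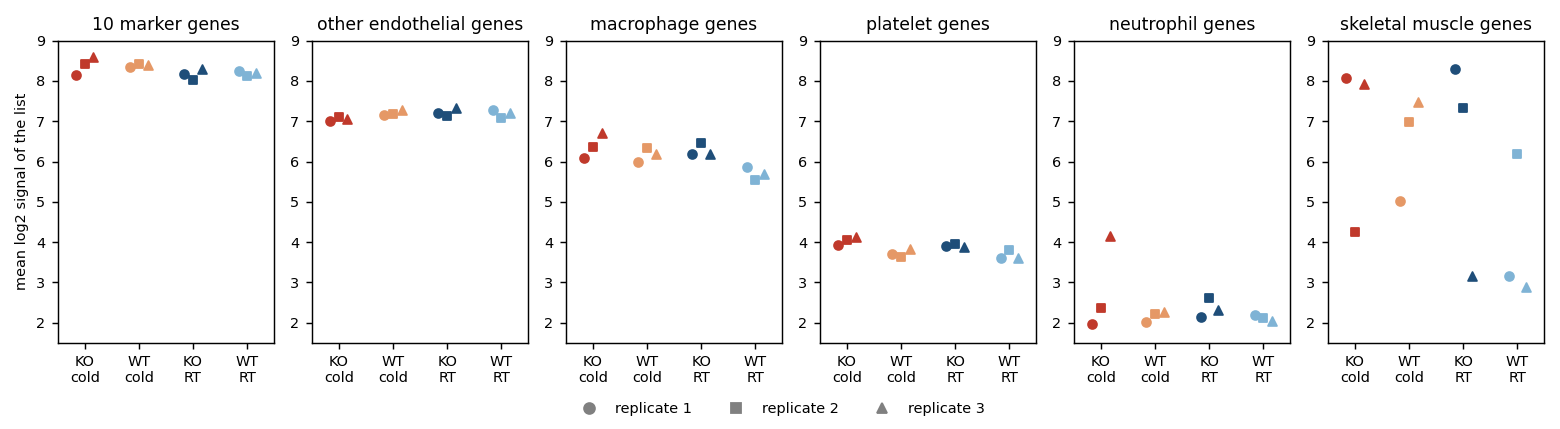
Mean log2 signal (y axis, the same in all panels) of the 10 endothelial markers and of the lists of other endothelial, macrophage, platelet, neutrophil and skeletal muscle genes on each of the 12 arrays, by group (x axis, RT, room temperature). Points are arrays, shaped by replicate number. The mean over the 10 markers stays between 8.02 and 8.59, while skeletal muscle runs from 2.88 to 8.29 and KO cold replicate 3 stands apart for neutrophil genes at 4.15.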

How the data were processed

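Gene expression in brown fat was measured with 12 arrays, 3 in each group. The deposited values are log2 signals per probe set, made by the authors with oligo and RMA per the submitters' processing notes, which also name limma. Versions and the array's genome build are not given in the sources used here, and the log2 scale was read from the values, whose range and quartiles are alike on the 12 arrays. RMA brings arrays to a like distribution, so a shift of all RNA cannot be seen.

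Of 41345 probe sets 23521 carried 1 gene symbol in the platform annotation, 1814 carried several and 16010 none. The brightest probe set per gene left 22180 genes, without a filter. In R 4.3.3 with limma 3.58.1 the 12 arrays were fitted together with a mean for each of the 4 groups, and 7 comparisons were tested two-sided with Benjamini-Hochberg adjustment over all genes (passed: adjusted p under 0.05). The fit was tested on simulated data in which 100 genes changed by 1 log2 unit and 100 by 0.5. For the cold in KO it recovered 75 and 5 of them, with 6 false calls. In WT these counts were 74 and 10, with 9 false calls, and over both genotypes 95 and 37, with 4. Changes of 0.5 within a genotype were thus mostly missed in the simulation. A far smaller part of the genes changed there than passed in the data (19.2% in KO and 17.4% in WT). The adjusted p is therefore stricter in the simulation, and these counts do not give the share recovered in the data. Precision is limited by 3 arrays per group.

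The members, the lists and the named genes were chosen with earlier results of these data known. Named were the 10 members, Zbtb7b, up to 4 genes per list and comparison with the smallest p, and the 5 genes whose deviations were most like those of the members. Sox7, Esm1, Cxcr4 and Trp53i11 were added after their values were seen. Listed genes without a probe set annotated with their symbol alone were left out. The replicate numbers of the titles were checked as pairs: of 18 pairs of arrays with the same number in different groups, 6 had deviations correlated above 0.1 (r from -0.54 to 0.45), so they were not taken as pairs. Alternatives covered the probe sets of a gene, the filter, the scaling between arrays, the spread, the replicate block, the arrays fitted and a skeletal muscle covariate. List counts without single arrays were added after seeing the data.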

Additional observations from a re-analysis of the deposited data

How the results depend on the processing

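Of 15 member differences that passed, 296 values under the alternatives still passed, 28 did not and 0 changed sign. Of the 55 that did not pass, 16 of 1186 values passed. The count of members passing in KO in the cold (6) was 1 with the 6 arrays alone, and 2 to 7 when 1 array was left out. In WT the count (3) was 5 among the brighter genes (mean signal 5 or more), 6 with the 6 arrays alone, 6 without KO cold replicates 1 and 3 together, and 2 to 5 when 1 array was left out. Over both genotypes it stayed at 6 to 7 when 1 array was left out. For the 3 comparisons of KO with WT and for the interaction it was 0 in every alternative run. With the replicate block, 6 members passed in KO, 3 in WT and 6 over both genotypes, and the block changed no count between KO and WT. Centring each array on its median moved the median of all genes by less than 0.1 in every comparison except the interaction. There it went from -0.0114 to 0.0916. The comparisons that use all 12 arrays had no alternative with only the arrays compared. Precision is limited by 3 arrays per group. The causes of these changes were not tested.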

Other observations

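The genes whose deviations from the group means were most like those of the mean over the 10 markers, over 12 arrays and 8083 candidate genes, were Itgb5 (r = 0.986, rho = 0.930), Tmem86a (0.970, 0.937), Dimt1 (0.968, 0.853), Nupl2 (0.965, 0.867) and Trmt2a (0.958, 0.972). They are a description without a test, since they are the top of a ranking, and 66.0% of the squared deviations of the marker mean came from the 3 KO cold arrays.

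Genes of mural cells, the pericytes and smooth muscle cells around the endothelium, were measured as well. Of 14 measured, 5 passed in the cold in KO (1 higher, 4 lower) and 5 in WT (0 higher, 5 lower). In both directions together these shares are near those of the brighter genes, 37.3% in KO and 34.4% in WT. By direction they differ, since most mural genes that passed were lower. Of the brighter genes 16.7% were higher and 20.6% lower in KO, and 20.0% higher and 14.4% lower in WT. This was not tested. The pericyte proteoglycan gene Cspg4 fell by 1.43 ± 0.16 in KO (adjusted p = 1.06e-04) and by 1.57 ± 0.16 in WT (adjusted p = 7.71e-05), and the smooth muscle myosin gene Myh11 fell by 1.06 and 0.90. Cnn1, a smooth muscle calponin, rose by 2.18 ± 0.33 in KO (adjusted p = 6.75e-04) and stood at 0.72 in WT.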
